A study of Mus musculus with 28 samples.

Results

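A total of 5972 strong intervals of H3K27 acetylation signal lay away from every annotated gene end in cranial neural crest cells of the E10.5 mouse face. Each had a peak score from 500 to 30000, lay on chromosomes 1 to 19 or X, and did not come within 1 kb of the start or end of any GRCm38 gene of any type. They made up 5972 of the 125826 intervals in the list of H3K27 acetylation, and 6.14% of the 97311 intervals that lay away from gene ends. Scores and positions chose these intervals, so the intervals were chosen by these measured values, which are given below as descriptions only.

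The list was called on the merged reads of 4 libraries of wild-type cells at E10.5, from the frontonasal process (FNP), the maxillary (Mx) and mandibular (Md) parts of the face, and the second pharyngeal arch (PA2), with 1 library for each population. Cells were collected by fluorescence-activated sorting; the marker used for the sort was not given in the sources used here. The series holds 28 libraries, and the other libraries, among them those labelled Ezh2cKO and HoxA2OE, were not used. Each interval therefore has a single pooled value. It shows where reads of the merged libraries gathered but not in which of the 4 populations. With no control named, an interval does not by itself show acetylation. There are no replicates, and the read depth is unknown. Every comparison below is between sets of intervals within this one list and carries no test of replicate error.

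Acetylation of lysine 27 on histone H3 marks active promoters and active enhancers. Promoters lie at the start of a gene, whereas enhancers can lie inside the gene they act on, inside another gene, or far outside any gene. A gene can also have several promoters, so that a transcript starts inside the span that the annotation gives to the gene as a whole. Such an internal start site is not counted as a gene end by the rule above. Those considered here lay over 1 kb from every gene end. The score is the peak caller's significance in the integer form that MACS2 writes, by its convention the value at the summit of the interval.

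At the edge of the rule, 12 intervals had the lowest admitted score of 500, and 14 otherwise eligible intervals had a score of 499. The highest admitted score was 29677, at chr9:3012750-3013618, and the next interval above the upper limit scored 30759. A pair of intervals lay 1001 bp from a gene end and was kept, including an 827-bp interval near Begain with a score of 534. An interval near Notch4 with a score of 1934 and a width of 1223 bp lay exactly 1000 bp from a gene end and was left out.

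Windows around internal start sites were met by 1027 of the 5761 strong intervals on the chromosomes with listed start sites (1 to 17, 19 and X), or 17.8% (95% exact binomial interval 16.9 to 18.8%). Among the 87686 weaker intervals away from gene ends, 597 did so, or 0.681%. An interval was counted when it overlapped by at least 1 bp the 300-base window from 250 bases before to 50 after a RefSeq start site that itself lay over 1 kb from every gene end. Of 32619 such windows of all kinds, 4727 were internal in this sense, and they belonged to 3571 genes. Where the start base itself had to lie in the interval, the counts were 678 strong intervals (11.8%) and 304 weaker ones (0.347%). Below, an interval "at" an internal start is one that met the window. All exact intervals given here cover counting error only, and neighbouring intervals in a list are not independent draws.

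The start windows below belong to the strongest of these intervals. They are the internal start windows of the 5 genes with the highest scores, followed by that of Ptch1, the Hedgehog receptor gene, which held the widest interval of all. Sequences are from RefSeq on GRCm38.p6, run 5′ to 3′ on the strand of the gene, and have the start site at base 251. Capitals mark the GC box, bound by Sp-family factors (GGGCGG or its complement CCGCCC), and the CCAAT box, bound by NF-Y (CCAAT or its complement ATTGG). Where a gene had several internal start windows in the same interval, the window with the most bases inside it is shown.
Nfyc, chr4:120825160-120825459, minus strand: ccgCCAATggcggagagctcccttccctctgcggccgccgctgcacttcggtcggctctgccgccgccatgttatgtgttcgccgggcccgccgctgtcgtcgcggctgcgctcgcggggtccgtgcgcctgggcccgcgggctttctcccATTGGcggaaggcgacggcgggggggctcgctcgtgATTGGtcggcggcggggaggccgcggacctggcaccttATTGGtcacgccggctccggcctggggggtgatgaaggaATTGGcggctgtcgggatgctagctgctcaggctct
Sp2, chr11:96977639-96977938, minus strand: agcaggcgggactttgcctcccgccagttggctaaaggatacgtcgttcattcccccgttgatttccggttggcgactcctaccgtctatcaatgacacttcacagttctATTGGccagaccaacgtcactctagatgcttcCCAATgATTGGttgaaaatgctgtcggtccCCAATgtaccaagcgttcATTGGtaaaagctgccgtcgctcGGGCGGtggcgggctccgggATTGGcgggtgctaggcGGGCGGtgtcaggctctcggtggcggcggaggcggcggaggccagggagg
Zfp821, chr8:109705769-109706068, plus strand: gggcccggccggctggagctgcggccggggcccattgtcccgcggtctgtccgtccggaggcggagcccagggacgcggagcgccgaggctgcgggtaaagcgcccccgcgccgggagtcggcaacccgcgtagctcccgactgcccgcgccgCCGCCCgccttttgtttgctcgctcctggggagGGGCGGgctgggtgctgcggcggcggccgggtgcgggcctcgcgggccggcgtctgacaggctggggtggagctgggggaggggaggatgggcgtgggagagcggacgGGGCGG
Dennd6a, chr14:26579300-26579599, plus strand: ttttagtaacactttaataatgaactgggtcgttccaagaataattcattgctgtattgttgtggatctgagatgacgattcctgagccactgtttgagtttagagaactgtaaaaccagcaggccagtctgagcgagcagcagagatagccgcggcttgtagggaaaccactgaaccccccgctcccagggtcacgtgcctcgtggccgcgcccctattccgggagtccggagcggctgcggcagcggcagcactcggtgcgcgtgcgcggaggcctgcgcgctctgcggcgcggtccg
Cirbp, chr10:80167921-80168220, plus strand: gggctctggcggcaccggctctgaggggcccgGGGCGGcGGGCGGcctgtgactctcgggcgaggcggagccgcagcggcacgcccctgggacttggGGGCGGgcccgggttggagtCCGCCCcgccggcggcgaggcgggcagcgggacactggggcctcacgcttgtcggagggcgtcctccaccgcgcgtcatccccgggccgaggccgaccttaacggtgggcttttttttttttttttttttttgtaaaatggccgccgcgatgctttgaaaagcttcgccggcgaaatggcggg
Ptch1, chr13:63565686-63565985, minus strand: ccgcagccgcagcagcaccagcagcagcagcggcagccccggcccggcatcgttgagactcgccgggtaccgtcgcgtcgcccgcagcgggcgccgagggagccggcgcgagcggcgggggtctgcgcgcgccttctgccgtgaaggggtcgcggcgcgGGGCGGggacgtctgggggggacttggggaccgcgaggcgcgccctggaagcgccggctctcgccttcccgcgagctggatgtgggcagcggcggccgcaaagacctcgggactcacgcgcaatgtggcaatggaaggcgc

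In all 6 the start site itself lay in the interval, but part of some windows did not. The Nfyc window lay wholly inside the interval chr4:120824743-120825763, which had a score of 19512 and a width of 1021 bp. Nfyc encodes a subunit of NF-Y, the factor that binds the CCAAT box, and its own window held 5 CCAAT boxes, no GC box and 39 CpG dinucleotides at a G+C content of 72.0%. The window of Sp2, a member of the Sp family of GC-box binding factors, held 6 CCAAT boxes, 2 GC boxes and 25 CpG over its whole length, of which 93 of 300 bases lay inside an interval of score 13602. Zfp821, a zinc-finger gene, had 3 GC boxes and 42 CpG under an interval of score 13269 that was 488 bp wide and held 287 of its bases. The window of Dennd6a, which encodes a DENN-domain protein, held neither box but 26 CpG, with 88 of its bases inside an interval of score 12684.

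Cirbp, which encodes a cold-inducible RNA-binding protein, had 4 GC boxes and 38 CpG in a window wholly inside an interval of score 11995. Ptch1 had 1 GC box and 47 CpG in a window wholly inside its interval, chr13:63563210-63566184, of width 2975 bp and score 1604. The windows thus shared a high count of CpG but not a common box.

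CpG content set apart the internal start windows under strong intervals from the rest. The 1048 windows under strong intervals held a median of 21 CpG, against 7 in 568 windows under weaker intervals alone and 4 in 2903 internal windows with no interval. Over all 32619 windows the median was 7. The ratio of observed to expected CpG was at least 0.6 in 72.2% of the windows under strong intervals, in 22.7% of those under weaker ones, in 6.34% of those with none and in 36.0% of all. Median G+C content was 62.7%, 54.7%, 48.0% and 53.0% in the same order. These are shares of windows, and windows of 1 gene can overlap. Start sites of chromosome 18 were not analysed here.

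Among boxes, GGGCGG on either strand was in 64.8% of the windows under strong intervals, 36.3% of those under weaker intervals, 13.2% of those with none, and 35.9% of all windows. This motif itself contains a CpG. By contrast, the CCAAT box did not separate the classes, with 32.9%, 32.0%, 38.4% and 37.6%. The palindromic GCCNNNGGC, a form of the TFAP2 site, was in 27.8% of windows under strong intervals and 16.7% of all. The cyclic AMP response core TGACGT was in 9.92% and 7.56%, and it too contains a CpG.

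Several other motifs were less frequent under strong intervals than over all windows. TATAAA, the TATA box, was in 5.06% against 13.7%, and TAATTA, a core shared by many homeodomain proteins, in 2.58% against 5.25%. CATCTG, an E-box form bound by basic helix-loop-helix factors, was in 10.0% against 17.1%, and ACAAAG, a SOX and TCF core, in 14.2% against 18.8%. TGACAG, a MEIS core, was in 14.1% against 18.9%. Of the remaining motifs searched, TGACTCA, the AP-1 site, was in 3.72% against 5.22%, GGAATG, a TEAD core, in 12.9% against 14.6%, and the E-box CAGCTG in 13.9% against 16.4%. All motifs were searched on both strands in the start windows alone. A match is a description of the letters and not a measured binding site, and base composition differed between the classes as given above.

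The CpG content of the windows also rose with the score of the interval above them. The median CpG ratio was 0.605 in 180 windows under intervals scoring 500 to 999, 0.670 in 226 windows at 1000 to 1999, 0.773 in 400 windows at 2000 to 4999 and 0.848 in 242 windows at 5000 to 30000. A ratio of at least 0.6 was held by 50.6%, 59.3%, 79.5% and 88.4% of these windows.

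The share of intervals at internal start sites climbed with the score over the whole list. It was 0.332% at scores from 31 to 99, 0.688% at 100 to 199 and 2.11% at 200 to 499. Within the strong intervals it was 6.90% (212 of 3071) at 500 to 999, 17.7% (256 of 1448) at 1000 to 1999, 41.0% (360 of 879) at 2000 to 4999 and 54.8% (199 of 363) at 5000 to 30000. The exact 95% interval of the last value ran from 49.5 to 60%. With the start base itself covered, the shares in these 4 bands were 3.81%, 10.1%, 29.5% and 43.0%, lower in each band and in the same order. Median width rose as well, from 190 bp at scores of 31 to 99 to 662 bp at 500 to 999 and 923 bp at 5000 to 30000. A wider interval meets a window or covers a base more readily, and the shares were not adjusted for width.

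**Figure D1:**
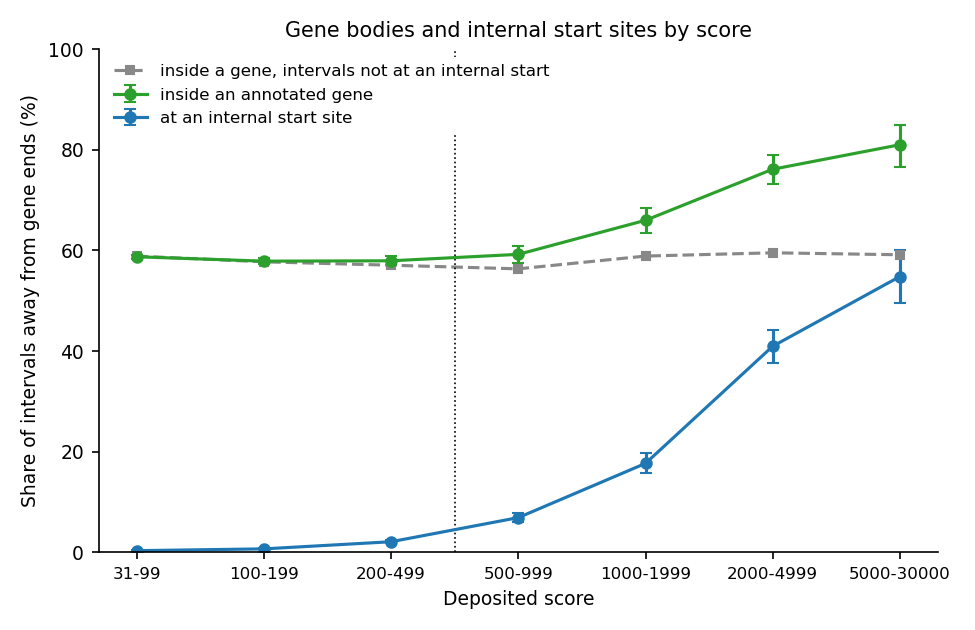
Share of intervals (percent, vertical axis) inside an annotated gene and at an internal start site, by band of peak score (horizontal axis), for all intervals away from gene ends; error bars are 95% exact binomial intervals. The share at internal starts rises from 0.332% in the lowest band to 54.8% in the highest, and the inside-gene share among intervals without a start stays between 56.4 and 59.5% from a score of 500 upward.

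Most strong intervals lay inside a gene. Of the 5972, 3874 (64.9%, 95% exact interval 63.6 to 66.1%) overlapped the span of an annotated gene, against 58.4% of the 91319 weaker intervals away from gene ends. Protein-coding genes held 3427 of them (57.4%, against 50.0% of weaker intervals), and 419 (7.02%, against 7.99%) lay in long non-coding RNA genes alone. The remaining 2098 (35.1%) lay outside every gene.

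The excess inside genes went together with the internal start sites. By score band the inside-gene share rose from 59.2% at 500 to 999 to 81.0% at 5000 to 30000. With the intervals at internal start sites set aside, it was 56.4%, 58.9%, 59.5% and 59.2% in the 4 strong bands, against 58.9% at scores of 31 to 99. An interval at an internal start site is inside its gene by construction in nearly every case, so these are not separate observations.

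Among the 863 genes with a strong interval at an internal start site, 847 were protein-coding. The internal start lay a median of 6.27 kb (quartiles 2.41 and 24.0 kb) downstream of the outer 5′ end of the gene, and in 427 of the 847 (50.4%) no interval of any score lay within 1 kb of that outer end. A lower-scoring interval marked the outer end in 269 genes (31.8%), and an interval of equal or higher score in 151 (17.8%). By comparison, the outer 5′ end of 62.8% of all 17274 protein-coding genes with a start window had an interval. In these genes the annotated outer start was thus more often without an interval than in protein-coding genes at large. This contrast is not independent of the rule, which leaves out any interval that comes within 1 kb of a gene end, the outer start included. An interval reaching from an internal start to the outer start could therefore not be a member. The comparison is also with all protein-coding genes that have a start window, not with those that have an internal start.

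The 10 highest-scoring intervals at internal starts are examples of marked and unmarked outer ends. Besides Nfyc, Sp2, Zfp821, Dennd6a and Cirbp, they lay in Atad2b (score 11959), Zfp638 (11804), Prkar1a (11651), Psma3 (11419) and Unk (11351). Prkar1a encodes a regulatory subunit of protein kinase A, Psma3 a proteasome subunit and Unk an RNA-binding zinc-finger protein. In 8 of the 10 the outer 5′ end had no interval. The exceptions were Zfp638, whose outer end 47.3 kb upstream of the internal start had an interval of score 795, and Psma3, with one of score 2627 at 5.34 kb. In the others the internal start lay from 1.70 kb (Unk) to 10.3 kb (Zfp821) downstream of the outer end.

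Of 203 listed genes with a start window, 12 (5.91%) had a strong interval at an internal start of their own, against 4.9% of all protein-coding genes with a window, so the lists did not stand far from the background. Foxp1, a forkhead repressor, had an interval of score 3636 at a start 494.4 kb downstream of its outer end, where the interval scored 1614. Rarb, a retinoic acid receptor gene, had 2532 at its internal start and 68 at its outer end, 506.9 kb away. Tcf12, a partner of Twist-family factors, showed the reverse order, with 873 inside and 10180 at the outer end.

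No interval lay at the outer end of Runx1, Tgfb2, Itgav, Palld, Amotl1 or Egfl7. Their internal starts had scores of 723, 1709, 6796, 3013, 5256 and 2251, in that order. Tgfb2 encodes a TGF-beta ligand, Itgav an integrin subunit, Palld an actin-associated scaffold and Amotl1 an angiomotin-family partner of the Hippo effector Yap1. Ptch1 had 1604 at its internal start and 882 at its outer end, 7.73 kb away. Cald1, which encodes the actin-binding caldesmon, had 3456 and 1089, and Flna had 674 and 143.

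Strong intervals at internal starts lay towards the 5′ end of their host genes, and so did, to a smaller degree, the other strong intervals. The midpoint of the 1001 intervals at an internal start of their host lay at a median of 22.9% of the gene's length and 6.60 kb from its 5′ end, in hosts of median length 52.3 kb. These are the intervals with a single protein-coding host of known strand. For 1733 other such strong intervals, not at an internal start, the median was 46.3%, at 36.2 kb in hosts of 101.3 kb. The 35043 weaker intervals had a median of 52.1%, at 69.3 kb in hosts of 162.7 kb. The first 10% of the gene held 28.0%, 12.9% and 6.34% of the 3 sets, and the last 10% held 0.999%, 7.96% and 9.12%. The host genes thus also differed in length between the sets, and the 1-kb margin at each end takes a larger part of a short gene.

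**Figure D2:**
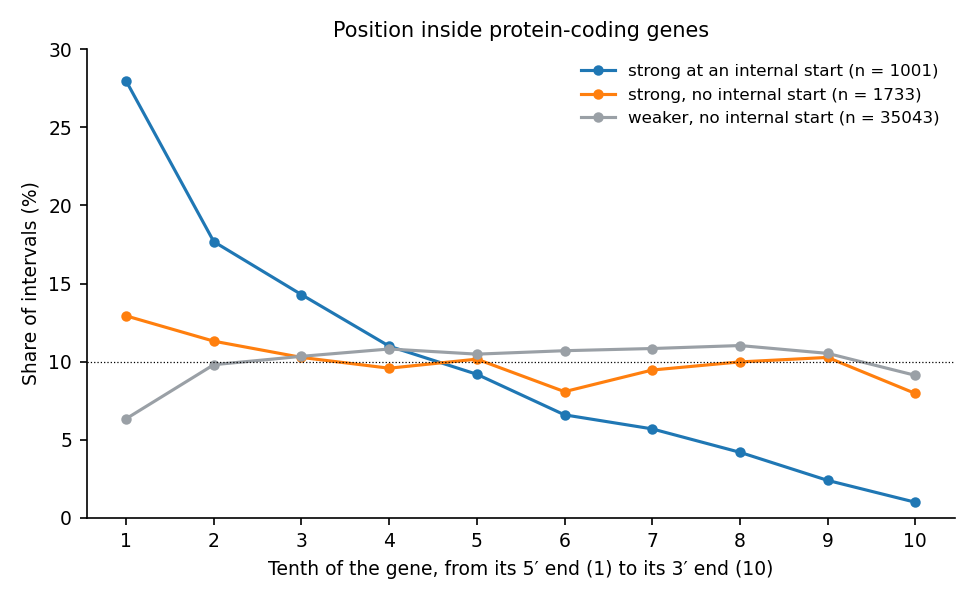
Position of intervals along their protein-coding host genes, in 10 equal bins of gene length from the 5′ to the 3′ end (horizontal axis), as percent of each set (vertical axis), for strong intervals at an internal start, strong intervals without one and weaker intervals without one. The first bin holds 28.0%, 12.9% and 6.34% of the 3 sets.

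Strong intervals were wide. Their median width was 726 bp (quartiles 512 and 994, range 144 to 2975 bp), against 233 bp (173 to 348) for weaker intervals away from gene ends. It was closer to that of the 14744 intervals of the same score range within 1 kb of a gene end, which had a median of 786 bp (563 to 1067). At least 1 kb was reached by 24.6% of the strong intervals away from gene ends, 30.0% of those at gene ends and 0.917% of the weaker ones. Width and score come from the same signal, so the contrast with weaker intervals is a description and not a separate finding.

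The strong intervals at gene ends were of much higher score at nearly the same width. Their median score was 2364, against 929 (quartiles 637 and 1745) away from gene ends, and their median score per base was 3.08 against 1.48. Strong intervals made up 52.3% of the 28198 intervals at gene ends against 6.14% elsewhere. Within the intervals away from gene ends, those at an internal start resembled the gene ends most: leaving aside members of runs of 6 or more, described below, the 1023 at an internal start had a median score of 2249 and a width of 839 bp, against 834 and 715 bp for the 4822 others.

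**Figure D3:**
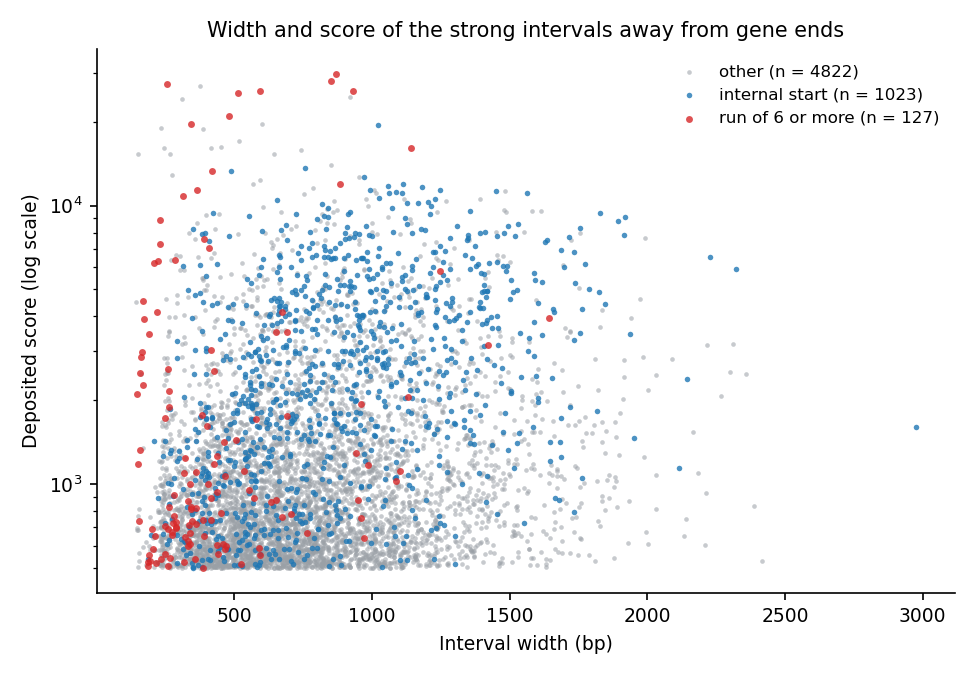
Width (bp, horizontal axis) against peak score (vertical log axis) of the strong intervals away from gene ends, one point per interval, with those at internal start sites and those in long runs marked. Widths run from 144 to 2975 bp; intervals in runs of 6 or more are narrow for their score, with a median of 362 bp at a median score of 1005.

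The 10 widest intervals were led by the one in Ptch1. It was followed by a 2416-bp interval in the long non-coding RNA gene Airn, and by intervals near Tmc3 (2387 bp), in Nr6a1 (2357 bp), in Sema4c (2322 bp) and near Rfx7 (2310 bp). The Prrx1 interval, chr1:163311096-163313396, was 2301 bp wide with a score of 2523 and lay inside the gene. Prrx1 is a homeobox gene of head and limb mesenchyme. Those near Rbx1 (2268 bp), in Plekho1 (2228 bp) and in Smarca2 (2217 bp), which encodes a chromatin-remodelling ATPase, completed the set. Of these 10, 7 lay inside genes and 3 at internal starts.

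The 15 highest-scoring intervals were of another kind. Their widths ran from 233 to 1021 bp with a median of 512 bp, 2 of the 15 lay inside a gene, and 1 (Nfyc) lay at an internal start. In all, 8 of the 15 belonged to a single run at the start of chromosome 9, described below. Others stood alone, such as chr14:8286564-8286938 near Fam107a, with a score of 26870, and chr4:70378033-70378344 inside Cdk5rap2, with a score of 24189. A score above 20 per base of width was found in 49 strong intervals away from gene ends (0.82%) and in 73 at gene ends (0.495%). These 49 had a median width of 366 bp, 15 lay inside genes and 5 at internal starts. Whether such narrow, high intervals come from sequence that is repeated in the genome was not tested, since no genome sequence was used here.

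Strong intervals lay nearer to gene ends than weaker ones did, even beyond the 1-kb margin. The median distance was 8459 bp (quartiles 3231 and 21448) against 16687 bp (6672 and 39723). Between 1 and 2 kb from the nearest gene end lay 14.9% of strong and 6.07% of weaker intervals, and between 5 and 20 kb lay 37.2% and 36.5%. Beyond 20 kb the order was reversed: 20 to 50 kb held 18.1% and 25.2%, 50 to 100 kb held 6.55% and 12.4%, 100 to 200 kb 1.93% and 5.63%, and more than 200 kb 0.469% and 1.41%. The median score of the strong intervals fell from 1213 in the nearest band to 698.5 in the farthest, while the median width lay between 701 and 782 bp in every band.

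The farthest strong interval lay 522.7 kb from any gene end, inside Nrxn3, a neurexin gene, with a score of 1366 and over an internal start site. It was followed by a pair of intervals outside genes, 392.6 and 359.5 kb from any gene end, with scores of 942 and 835. Their nearest protein-coding genes were Adgrl3 and Slit2, the gene of a secreted guidance cue. Of the 10 farthest, 7 lay inside a gene and 4 at an internal start; besides Nrxn3 these were Dab1, Nckap5 and Lsamp, with scores of 696, 1422 and 1582. The other hosts were Auts2, Rims1 and the non-coding gene Gm32647.

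Other intervals of the list were about as frequent around strong intervals as around weaker ones. The median number within 10 kb was 2 (quartiles 1 and 3) for both sets, and none lay within 10 kb of 14.9% of the strong and 20.1% of the weaker intervals. Joined where the gap was at most 12 kb, the strong intervals formed 4773 runs. Of these, 887 had at least 2 members and together held 2086 intervals (34.9%). Runs were not counted for any other set, so this share does not show that strong intervals gather more than others. Some members lay very close together: with those closer than 1 kb merged, 5203 intervals remained of the 5972. There were 12 runs with 6 or more members, with 127 intervals in all (2.13%).

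The longest run, of 31 strong intervals, lay at the start of chromosome 9, from 3002532 to 3037540. Its median score was 6401 at a median width of 231 bp, and none of its intervals lay inside a gene or at a listed start site. The nearest protein-coding gene was Alkbh8, which encodes a transfer-RNA modifying enzyme,, which lay 298.9 to 332.4 kb from the 8 highest-scoring members.

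The second run, of 29 strong intervals, filled the space between Hrh1, the histamine H1 receptor gene, and Atg7, an autophagy gene, at chr6:114493576-114607401. Counting weaker intervals as well and following the stretch while gaps were at most 5.5 kb, 61 intervals followed one another over 146.6 kb at a nearly constant spacing, with a median of 2.425 kb from midpoint to midpoint (quartiles 2.355 and 2.489). Of the 60 gaps, 50 were between 2.3 and 2.6 kb, against 1093 of 125489 gaps (0.871%) over the whole list. Scores ran from 124 to 1489 with a median of 522, widths had a median of 334 bp, and no interval lay inside a gene or at a listed start site. Such even spacing is a property of the positions alone; a tandemly repeated sequence as its source was not tested.

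**Figure D4:**
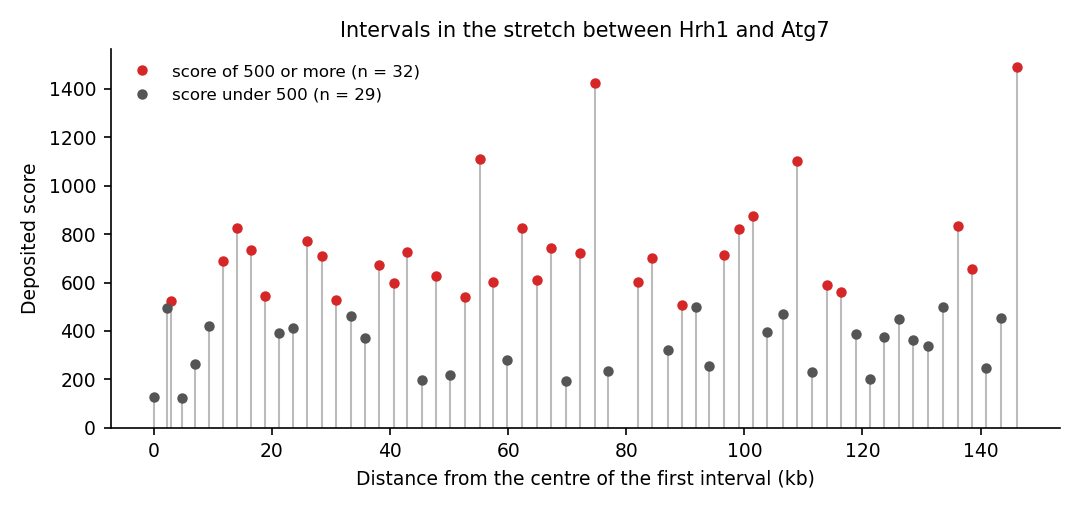
Peak score (vertical axis) of the 61 intervals between Hrh1 and Atg7 against the distance along the array (kb, horizontal axis), with strong and weaker intervals marked. The intervals stand at a median spacing of 2.425 kb, and 50 of the 60 gaps lie between 2.3 and 2.6 kb.

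Of the next runs, 9 intervals on chromosome 6 (47659439 to 47686489) had a median width of 205 bp and a median score of 585. Runs of 7 lay at chr6:47739946-47772517 and, on the X chromosome, inside the non-coding gene 4933407K13Rik. A run of 8 on chromosome 10 (80142350 to 80168687) was different: it passed through Cbarp, Midn and Cirbp, 4 of its intervals lay at internal starts, and its median score was 2858. Of the run of 9, 6 intervals lay inside genes, as did all 7 of the run on the X chromosome, and neither run met an internal start.

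Protein-coding neighbours were many. In all, 3641 protein-coding genes were the nearest to at least 1 strong interval, or 16.8% of the 21631 in the table, and 2349 of them (64.5%) were nearest to a single one. At the other end, 112 genes were nearest to 5 or more and 10 to 10 or more. The genes with the most intervals were Alkbh8 (32), Hrh1 (19) and Atg7 (13), which border the runs above. Olfr161, an olfactory receptor gene, had 9 at 239.4 to 478.6 kb with a median width of 347 bp. The nearest gene is a matter of position and need not be the gene on which an interval acts.

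Outside the runs, the genes with the most strong intervals were Maml3, Frmd4a and Zmiz1. Maml3, a Notch co-activator gene, had 11, all inside the gene, with scores from 522 to 2862. Frmd4a, which encodes a scaffold protein of epithelial polarity, had 11 with scores up to 4791, of which 10 lay inside and 3 at internal starts. Zmiz1, a transcriptional co-activator gene, had 11, but 1 of them inside. Bcl11a, Bcor, Nfia and Zfhx3, all genes for transcription factors or co-repressors, had 10 each, with highest scores of 4036, 1794, 1119 and 6262.

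Disc1, Dnm3, Msrb3 and Ubash3b had 9 each, and the 9 of Dnm3, a dynamin gene, all lay inside it with scores from 519 to 985. Most of these genes also had many weaker intervals: 51 for Maml3, 64 for Frmd4a, 83 for Nfia, 112 for Bcl11a and 131 for Zfhx3. Counted by host, Maml3 (11 in 418.0 kb), Frmd4a (10 in 596.4 kb), Dnm3 (9 in 495.9 kb) and Nfia (8 in 540.8 kb) led. They were followed, at 7 each, by 4933407K13Rik, Aopep, Disc1, Gse1, Pakap, Tns1, Zfp423 and the overlapping pair Iqschfp and Schip1, which share the same intervals. In these genes the highest strong score of 7574 was in 4933407K13Rik and the next, 4487, in Zfp423, a zinc-finger transcription factor gene.

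Regulators of facial identity and mesenchyme were often nearest to a strong interval. Among 28 regulators of neural crest and mesenchyme, 23 were (82.1%, against 16.8% of all protein-coding genes). So were 24 of 33 craniofacial signalling genes (72.7%), 6 of 9 frontonasal regulators, 6 of 9 regulators of the maxillary and proximal arch region (66.7% each), and 4 of 13 regulators of the mandibular and distal arch region (30.8%). The lists were chosen with results of these data known. Genes with large gene-free surroundings are nearest to more intervals of every kind, so that a second value was computed: of all intervals away from gene ends that were nearest to a list's genes, the share that was strong.

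By that share the regulators of the face were close to the 6.14% of all intervals away from gene ends. It was 6.32% (66 of 1045) for regulators of neural crest and mesenchyme, 6.58% (52 of 790) for signalling genes, 5.56% (15 of 270) for frontonasal, 6.90% (12 of 174) for maxillary and 3.57% (5 of 140) for mandibular regulators. The exact interval of each of these 5 shares included 6.14%, and that of mandibular regulators ran from 1.17 to 8.14%. The genes of these lists thus had many strong intervals among many intervals in all. The strong share itself fell with distance from gene ends. Between 1 and 2 kb lay 887 strong and 5544 weaker intervals, and beyond 200 kb 28 and 1290. No list share here or below was adjusted for distance, so 6.14% is not a matched background.

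**Figure D5:**
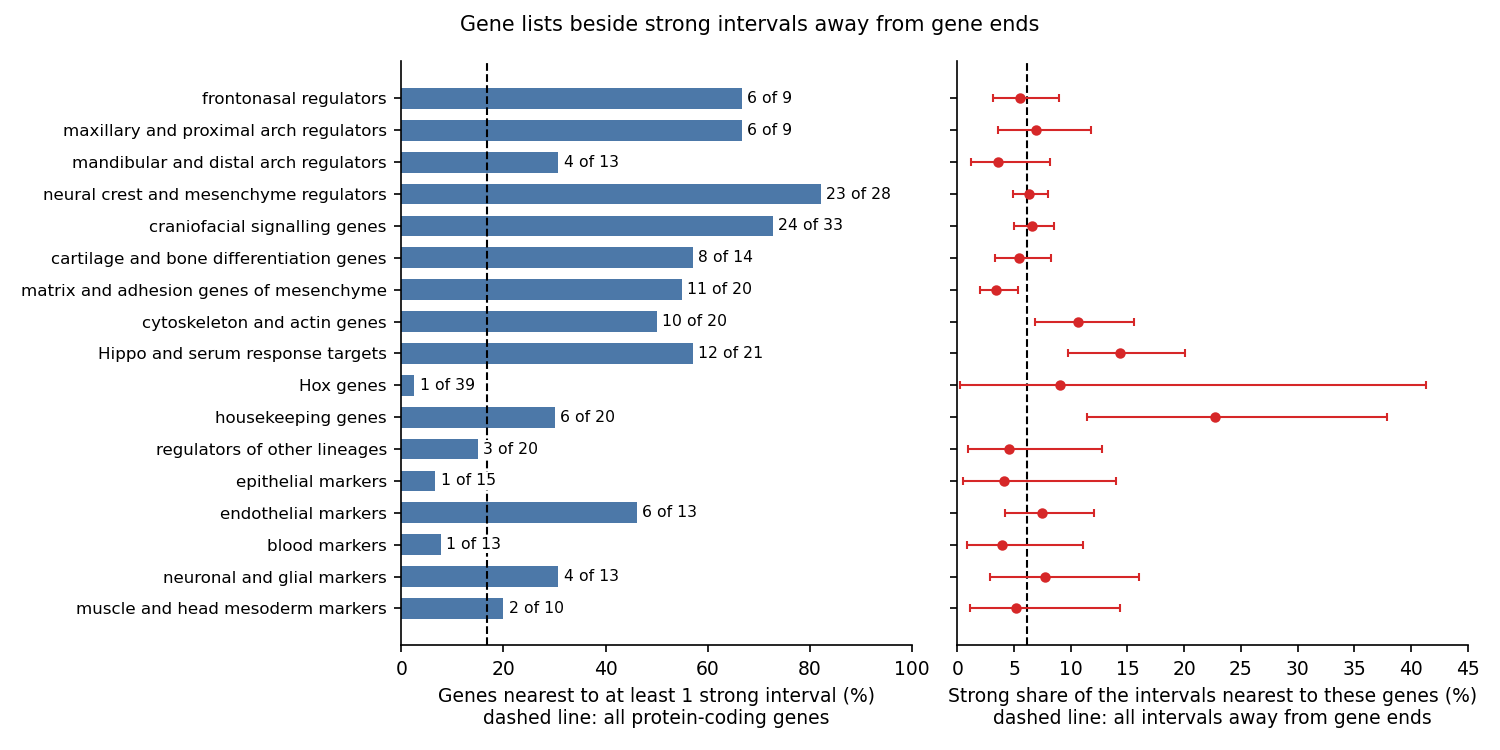
For each of 17 gene lists, the percent of its genes that are nearest to a strong interval (left, bars) and the percent of the intervals nearest to its genes that are strong (right, points with 95% exact intervals); dashed lines mark 16.8% and 6.14%, the values over all protein-coding genes and all intervals away from gene ends. The bars of frontonasal, maxillary and neural crest regulators reach 66.7 to 82.1%, while their points lie at 5.56 to 6.90%.

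Among neural crest regulators, Nfia, a nuclear factor I gene, had 10 strong intervals with scores from 509 to 1119, and its family member Nfib had 6, from 567 to 1913. Ets1, an Ets-family factor gene expressed in migrating crest, had 6, from 509 to 2312. Tcf4 and Tcf12, genes of E-proteins that pair with Twist factors, had 6 and 4, with the highest at 5861 and 4612. Tfap2a, a core neural crest regulator, had 2718 and 1247, both inside the gene, and Twist1 had 865 and 514. No strong interval was nearest to Sox9, Foxc1, Foxc2, Snai1 or Snai2.

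Frontonasal regulators were led by Nr2f1, a nuclear receptor gene, with 4 strong intervals at scores of 1144, 712, 650 and 588. Its relative Nr2f2 had 2470, 1421 and 595, Six2 had 1368, 533 and 528, and Pax3 had 879 and 657. Alx4, a homeobox gene of the frontonasal mesenchyme, had 2374 at 74.2 kb and 865. Alx1, Pax7 and Tfap2b had none. In the maxillary list Pou3f3 had 1345, 673, 646 and 508, Meis2 had 1336 and 610, and Barx1 had 1451. Dlx2 had 608 and Lhx8 751, while Dlx1, Lhx6 and Pitx1 had none.

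Mandibular regulators had 5 in all: Msx1 had 514 and 512, Dlx3 had 774, Foxf1 had 621 and Msx2 had 514. Hand1, Hand2, Dlx5 and Dlx6, the genes of the distal arch program, had none. Of 39 Hox genes, 1 was nearest to a strong interval (2.56%): Hoxb4, with an interval of score 655 inside the neighbouring Hoxb3. The genes of the Hox list were nearest to 11 intervals away from gene ends in all.

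Signalling genes were led by Smad6, an inhibitory Smad of the BMP pathway, with 7 strong intervals at scores of 575 to 1141. Gli2, a transcription factor of the Hedgehog pathway, had 5, from 558 to 1965. Pdgfra, a growth factor receptor gene of crest mesenchyme, had 5, from 511 to 1451, and Rarb 5, from 502 to 2532. The highest scores of this list were at Smad7 (4076), another inhibitory Smad, and Tgfbr1 (3576), a TGF-beta receptor gene, named for their scores after these were seen. None was nearest to Shh, Fgf8, Fgf10, Bmp2, Edn1, Bmpr1a, Pdgfrb, Tgfb3 or Tgfbr2.

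Cartilage and bone genes had 8 of 14 with a strong interval (57.1%), at a strong share of 5.42% (20 of 369). Sox5 had 5, with scores up to 1066, Col1a2 had 4 with the highest at 1429, and Col2a1, the cartilage collagen gene, had 1186 and 1145. Matrix and adhesion genes had 11 of 20, at a strong share of 3.39% (17 of 502). In that list Tnc had 4, all at 298.9 to 450.8 kb, and Itgav had the highest score, 6796.

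Actin, Hippo and housekeeping genes had larger strong shares. Hippo and serum response genes had 12 of 21 genes (57.1%) and 28 of 195 intervals strong, or 14.4% (95% exact interval 9.76 to 20.1%). For cytoskeleton genes the counts were 10 of 20 genes and 23 of 216 intervals, or 10.6% (6.87 to 15.6%). Housekeeping genes had 6 of 20 genes (30.0%) but 10 of 44 intervals, or 22.7% (11.5 to 37.8%).

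Fos, an immediate early gene, had 3900, 3286, 2450 and 1091 at 7.90 to 18.7 kb, Jun had 3748 and 629, and Fosb had 1108, 568 and 525. Amotl1 had 5256, 971 and 651, Ccn1, a matricellular Yap1 target, had 1925, 854 and 710, and Wwtr1, the gene of the Yap1 relative TAZ, had 4 from 509 to 1115. Actb, the beta-actin gene, had 9291, 4441, 1110, 991 and 564, Palld had 3013, 2916, 773 and 584, and Tpm1, a tropomyosin gene, had 4077 and 615. Ywhaz had 8671, 6776 and 762, all inside the gene at 8.38 to 9.40 kb from its ends.

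Markers of other cell types were also represented, and their part in these values was not tested. Endothelial markers had 6 of 13 genes (46.2%) and a strong share of 7.46% (15 of 201). Fli1 had 5 from 542 to 2960 at 1.46 to 21.9 kb, and Cdh5 had 1058, 599 and 503 at 72.9 to 287.5 kb. Erg had 1377 and 1167 at 15.2 to 109.6 kb, and Egfl7 had 2251 and 875 at 2.20 to 5.39 kb. Neuronal and glial markers had 4 of 13, with Isl1 at 2422 and 1599 and Stmn2 at 4704 and 3709, the last at 262.9 and 263.4 kb. Muscle and head mesoderm markers had 2 of 10 (Lhx2 and Des) and regulators of other lineages 3 of 20. Epithelial markers had 1 of 15 (Krt18, 1327 and 534) and blood markers 1 of 13 (Ptprc, 873, 560 and 523). The strong share was 7.69% (6 of 78) for neuronal and glial markers and 5.17% (3 of 58) for muscle and head mesoderm markers. It was 4.55% (3 of 66) for regulators of other lineages, 4.08% (2 of 49) for epithelial and 3.95% (3 of 76) for blood markers. The exact interval of each of these shares included 6.14%, the share over all intervals away from gene ends. Of 15 epithelial markers 9, and of 13 blood markers 6, were nearest to any interval away from gene ends. Pecam1 (549 and 511) and Tie1 (821) were further endothelial genes, and Map2 (724) a further neuronal one. Of other defining markers, Epcam, Cdh1, Kdr, Gata1, Tubb3, Myod1 and Myf5 were nearest to no strong interval.

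Across chromosomes, strong intervals made up between 4.60% (chromosome 3) and 8.75% (chromosome 7) of the intervals away from gene ends on autosomes. The X chromosome stood apart at 14.9% (166 of 1116), and at 13.9% with members of the runs of 6 or more left out. Of its 166 strong intervals, 41 lay at internal start sites.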

How the data were processed

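H3K27 acetylation was measured by ChIP-seq in cranial neural crest cells. The submitters' processing notes name bcl2fastq 2.17, Bowtie 1.1.1 and GRCm38. Per the deposited description, MACS2 2.1.3.3 ran without model building, at a shift of 0, an extension of 141 bases and a q-value limit of 0.001; duplicate reads were kept, and no control is named. The authors merged the 4 libraries before calling, and the deposited score is the peak caller's integer value, here from 31 to 3194311. With duplicates kept and no control named, a score can include a local excess of reads of any origin. An extension of 141 bases sets the smallest width, 141 bp.

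Intervals were compared with 49554 genes of all types in the RefSeq table for GRCm38.p6 and with its 300-base start windows, in Python 3.11.15 (pandas 2.3.3, numpy 2.4.6, scipy 1.17.1, matplotlib 3.10.9). Distances are from the interval's edge to the nearest gene end, and a run joins strong intervals with gaps of at most 12 kb. The overlap and counting steps were tested on simulated data. Motifs were sought in start windows alone because no genome sequence was used. The members and the 17 gene lists (308 genes) were chosen with earlier results of these data known. Genes and intervals were named by fixed rules: the 15 highest scores, the 10 widest, the 10 farthest, the 10 highest at internal starts, the 5 largest runs with ties, the 15 genes nearest to most intervals, the 10 holding most with ties, and up to 5 genes in each list. Genes with none, genes with an own internal start and genes called out for their score were added after their values were seen. No test was made, since the list is 1 pooled sample. The alternatives varied the score and distance limits, the gene types, the start-site definition, the gap of a run and the intervals in long runs. A few items named by these rules are not reported here.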

Additional observations from a re-analysis of the deposited data

How the results depend on the processing

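The counts and shares followed the limits of the rule. With the lower score limit at 300 in place of 500, 10922 intervals were admitted, with a median width of 638 bp, 61.1% inside genes, a median distance to a gene end of 10194 bp, 11.1% at internal starts, 41.9% in runs and 24.5% of protein-coding genes nearest to one. With a limit of 1000 these values were 2781, 817 bp, 71.3%, 6592 bp, 30.3%, 27.3% and 9.72%. At a margin of 2 kb the inside-gene share was 61.9%, the distance 10988 bp, the start share 15.2%, the run share 33.2% and the gene share 14.5%. At 5 kb, 3836 intervals remained eligible, with 59.5%, 16058 bp, 13.4%, 31% and 11.1%. With protein-coding ends alone the values were 68.9%, 17146 bp, 14.6%, 37.7% and 20.0%. The inside-gene share was 57.4% for protein-coding genes alone, and the distance to their ends 17661 bp. Internal starts were met by 21.2% with windows widened by 1 kb, against 1.39% of weaker intervals. Where the start base itself had to be covered the share was 11.8%, against 0.347%. Runs held 33.5% without runs of 6 or more and 28.3% with a gap of 5 kb. Within 100 kb of a strong interval, rather than nearest to one, were 46.3% of protein-coding genes. Of the list shares, those at a limit of 1000 moved to 46.4% for neural crest regulators, 33.3% for signalling and 20.0% for matrix genes. They moved to 0 for mandibular regulators, Hox genes, blood markers, and muscle and head mesoderm markers. At 5 kb housekeeping genes had 10.0% and epithelial markers 0. Within 100 kb the shares were 85.7% for cartilage and bone, 90.0% for cytoskeleton, 85.7% for Hippo and serum response, 23.1% for Hox, 75% for housekeeping, 46.7% for epithelial, 46.2% for blood and 61.5% for neuronal and glial genes. The other 204 of 258 recomputed values stayed inside the 95% exact interval of the value reported or, for the number of intervals, within 1.5 times. Those with intervals closer than 1 kb merged were among them. Of these 204, however, 170 were list shares. The exact interval of a short list is wide (29.9 to 92.5% for the 9 frontonasal regulators), which leaves room for large changes. Of the 54 values that moved, 17 were list shares, and the rest described the strong intervals as a whole. Leaving out long runs or scores above 20 per base, covering the start base, and moving the limits for the start, distance, run and gene shares were chosen after seeing the data. The planned base-composition and motif alternative over the intervals themselves was not run, as it needs a genome. No paired analysis was possible because the list is a single call on merged libraries. The unknown depth limits what a missing interval can show.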

Other observations

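Above the upper score limit, 20 further intervals lay away from gene ends, with scores from 30759 to 3194311. Their median width was 409.5 bp, 3 lay inside genes, and each had a score of at least 40.2 per base of width, against a median of 1.48 among the strong intervals.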
